A study of Mus musculus with 38 samples.

Results

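This section describes 7 genes that mark fat cells, Adipoq, Cfd, Fabp4, Plin1, Retn, Cidec and Car3, on spleen arrays of BXD mice. They were taken as every probe annotated to those symbols, and levels, shared variation across strains, arrays that stood apart and the relation to pancreatic enzyme genes were measured. Of the 7 genes, 6 had at least 1 annotated probe, 7 probes in all, and 3 genes had a probe that was detected often enough to be analysed. The whole table held 17411 genes with a probe of a single symbol, 11167 of them with a probe kept. The arrays were Illumina Sentrix Mouse-6 v1.1, 1 array for each of 38 BXD strains, which are recombinant inbred lines of C57BL/6 and DBA/2 ancestry. Each array carried spleen RNA pooled equally from 2 adult mice aged 8 to 12 weeks of the same strain and sex, with no treatment named. The labels gave 35 arrays as male and BXD18, BXD38 and BXD96 as female. Each strain had a single pool, so errors and p-values describe how strains differed, technical error included.

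White adipocytes store triacylglycerol in a single large lipid droplet and release fatty acids from it by lipolysis, and they secrete hormones into the blood. Adiponectin (Adipoq), leptin, adipsin (complement factor D, Cfd) and, in mice, resistin (Retn) are among the secreted products. Perilipin 1 (Plin1) coats the droplet and controls access of lipases to it, Cidec drives the growth of the droplet by lipid transfer between droplets, and Fabp4 carries fatty acids in the cytosol. Car3, a cytosolic carbonic anhydrase, is abundant in fat and also in skeletal muscle and liver. Fabp4 is also made by capillary endothelium and macrophages. The spleen's hilum, where its vessels enter, is bordered by visceral fat and by the tail of the pancreas.

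The stretches upstream of Adipoq and Cidec, whose levels moved together in these arrays, and of the hormone gene Lep, detected on 3 arrays, are shown because they differ in the short promoter motifs they hold. They are the 250 bases before the transcript start in RefSeq on build GRCm38.p6, printed 5′ to 3′ along the gene's own strand. Of the 7 genes, 5 had such an entry. Adipoq, at chr16:23146286-23146535 on the plus strand, encodes the hormone adiponectin. Cidec, at chr6:113435761-113436010 on the minus strand, encodes the droplet protein, and this is the first of its listed starts. Lep, at chr6:29059971-29060220 on the plus strand, encodes leptin.
Adipoq: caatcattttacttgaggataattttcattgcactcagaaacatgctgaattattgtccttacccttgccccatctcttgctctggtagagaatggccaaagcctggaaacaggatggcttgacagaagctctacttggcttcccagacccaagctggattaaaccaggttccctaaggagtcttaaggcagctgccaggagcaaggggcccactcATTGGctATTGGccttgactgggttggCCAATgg
Cidec: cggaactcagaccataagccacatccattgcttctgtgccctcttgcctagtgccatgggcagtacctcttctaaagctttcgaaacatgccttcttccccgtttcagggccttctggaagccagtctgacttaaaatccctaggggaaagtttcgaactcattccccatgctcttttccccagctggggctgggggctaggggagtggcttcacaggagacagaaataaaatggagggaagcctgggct
Lep: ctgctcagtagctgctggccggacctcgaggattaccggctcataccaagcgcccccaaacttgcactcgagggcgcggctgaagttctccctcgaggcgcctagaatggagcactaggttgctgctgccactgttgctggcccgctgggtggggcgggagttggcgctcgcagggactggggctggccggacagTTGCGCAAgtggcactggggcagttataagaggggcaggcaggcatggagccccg
Capitals mark matches, on either strand, to the TATA box TATAAA, the CCAAT box CCAAT or TTGCGCAA, a palindrome of the kind bound by the adipogenic C/EBP factors. No match overlapped another, apart from TTGCGCAA, which as a palindrome matches at the same bases on both strands. The Adipoq stretch held CCAAT at -7 as printed and its reverse complement at -34 and -27, counted back from the transcript start, and CCAAT was present in 33.8% of 32851 RefSeq promoters cut to the same length. The Lep stretch held TTGCGCAA at -55, a sequence present in 0.164% of those promoters. Of the 14 genes called in the Adipoq fit below that had a promoter entry, 1 held it, Lep itself. TATAAA was found in 12.4% of the 32851 RefSeq promoters, and the Cidec stretch held none of the 3 motifs. These are matches of letters and not measured sites.

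A probe was called detected on an array where its smoothed detection p-value was under 0.01, which corresponded to intensities above 95.5 to 135.4 depending on the array. Adipoq, on chromosome 16 (chr16:23146536-23157968), was detected on 36 of 38 arrays, with an intensity of 112 at the lowest, 318 at the median and 2064 at the highest. The 2 arrays without detected Adipoq were BXD14, at an intensity of 112, and BXD68, at 126. Cidec, on chromosome 6 (chr6:113424634-113435760), was detected on 21 arrays, with intensities of 81.1, 119 and 625 at the lowest, the median and the highest. Car3, on chromosome 3 (chr3:14863538-14872381), was detected on 37 arrays, at 117, 391 and 3434, and only BXD68 fell short. Intensities of different probes are not comparable as transcript levels, so these values rank arrays and not genes.

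The other adipocyte genes gave no signal above background. The Fabp4 probe was detected on 0 of 38 arrays, with a highest intensity of 121.9. The same held for both Plin1 probes, whose highest intensities were 85.6 and 113.5, and for the Retn probe, at most 108.9. Cfd had no probe annotated to it here and was not analysed. The droplet coat Plin1, the fatty acid carrier Fabp4 and resistin were not detectable with these probes. Their levels below detection say nothing about whether they vary.

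**Figure D1:**
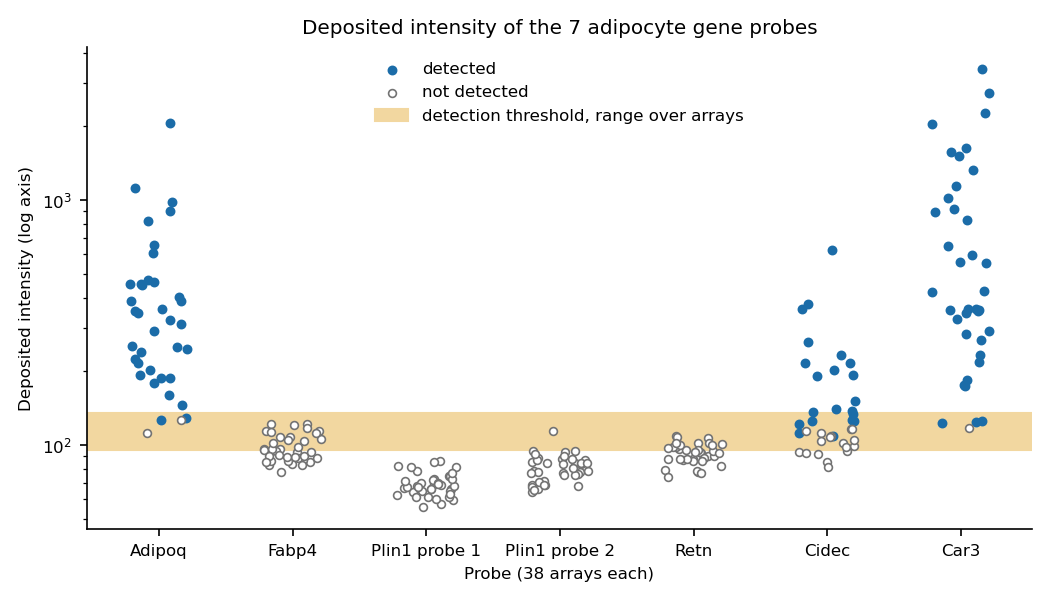
Deposited intensity (log axis) of each of the 7 probes, 1 point per array, filled where the probe was detected. The shaded band is the range over arrays of the intensity at which a probe counts as detected; the Adipoq, Cidec and Car3 probes rise above it and the probes of Fabp4, Plin1 and Retn stay within or below it.

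After background correction and normalization, Adipoq ran on the log2 scale from 4.99 in BXD14 over a median of 7.99 to 10.69 in BXD96. Its spread over strains (SD 1.25, n = 38) was above that of 98.4% of all probes kept. Cidec ran from 4.68 in BXD68 over 5.92 to 8.84 in BXD96, with an SD of 1.05 that was above 97.5% of probes. Car3 ran from 5.28 in BXD68 over 8.64 to 11.48 in BXD96, with an SD of 1.62 that was above 99.1% of probes. All 3 genes thus had their highest value on the same array, and the lowest values fell on BXD14 and BXD68. On the arrays where Cidec was not detected its level is bounded by background. The same holds for Adipoq in BXD14 and BXD68 and for Car3 in BXD68. In pooled tissue RNA, fewer cells of a type and less RNA per cell cannot be told apart.

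The arrays that stood apart were shared among the 3 genes. A gene was said to stand apart on an array where it lay more than 1 log2 unit above its own median, which was the case on 7 arrays for Adipoq, 7 for Cidec and 11 for Car3. On BXD11, BXD48, BXD69 and BXD96 all 3 genes stood apart, on 4 further arrays 2 of them, on 5 arrays 1, and on 25 none. BXD96 held Adipoq at 10.69, Cidec at 8.84 and Car3 at 11.48. BXD48 held them at 9.90, 8.07 and 11.22. The 2 arrays were close to each other in Car3 and differed by less than 1 log2 unit in each gene. BXD69 had Adipoq at 10.09 and Cidec at 8.21 with Car3 at 9.93, and BXD11 had 9.54, 7.86 and 10.75 in the same order. BXD69 therefore ranked second in Adipoq and Cidec, while its Car3 lay below that of BXD50, at 10.94, and BXD12, at 10.44. At 2 log2 units above the median, 2 arrays remained for Adipoq, 3 for Cidec and 4 for Car3, and BXD96 was the only array with all 3.

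The low end was shared too. More than 1 log2 unit below the median lay 8 arrays for Adipoq, 7 for Cidec and 11 for Car3, and BXD14, BXD36, BXD68, BXD73 and BXD75 were below it in all 3 genes. Adipoq was 6.72 in BXD36, 6.07 in BXD73, 5.81 in BXD75 and 5.57 in BXD68. Car3 was 6.01, 5.92, 5.77 and 5.28 on those arrays, in the same order. Among the 8 highest arrays of each gene, 4 were common to the 3 lists, and among the 8 lowest 5 were. Some arrays broke the order. In BXD83 Cidec was 4.80, near its floor, with Car3 at 8.61, close to the Car3 median, and in BXD24 Adipoq was 9.36 and Cidec 7.41 with Car3 at 8.77.

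**Figure D2:**
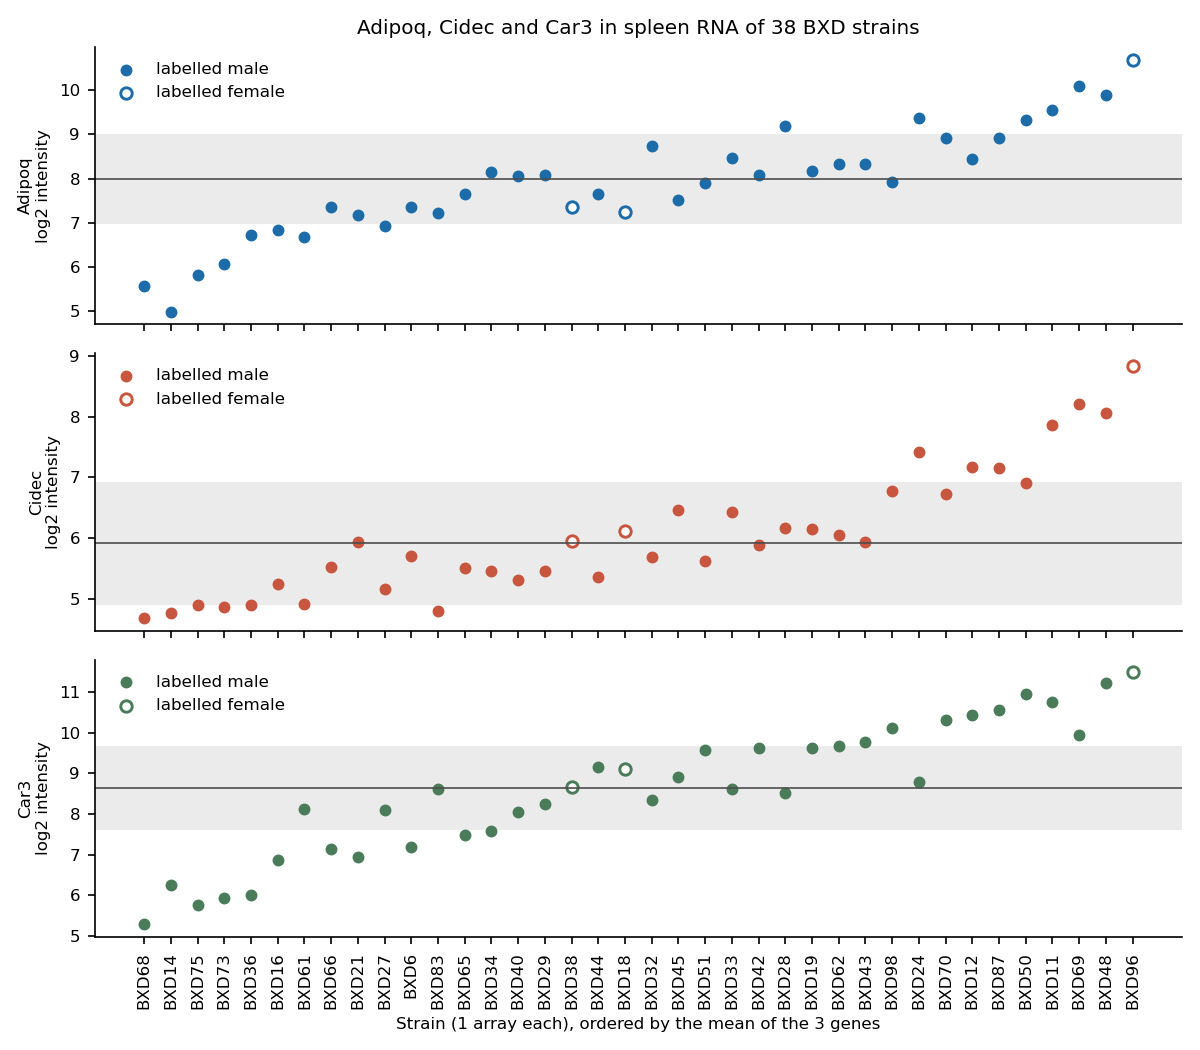
Log2 intensity of Adipoq, Cidec and Car3 in each of the 38 strains, ordered by the mean of the 3 genes, with open circles for the 3 arrays labelled female. The line is the median over arrays and the grey band 1 log2 unit either side; BXD96 is highest in all 3 panels and BXD14, BXD36, BXD68, BXD73 and BXD75 lie below the band in each.

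Adipoq and Cidec rose and fell together across the 38 strains, with a Pearson r of 0.868 and a Spearman rho of 0.854. Adipoq and Car3 gave an r of 0.831 and a rho of 0.802, and Cidec and Car3 an r of 0.804 and a rho of 0.835. Each of these had a permutation p of 1.0e-05, the smallest that 100000 resamples can give, and an adjusted p of 4.0e-05 over the 12 relations tested (two-sided permutation test). Without the 2 arrays farthest from the median of the gene on the x axis, r was 0.850, 0.805 and 0.800 for the 3 pairs. Among the 35 arrays labelled male it was 0.853, 0.826 and 0.786. The r of the 3 genes with the number of probes detected on an array lay between -0.04 and 0.08, and with the median intensity between -0.08 and 0.06, with adjusted p of 0.794 or more.

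In a fit of every probe on the Adipoq level over the 38 arrays (limma, Benjamini-Hochberg adjustment over 17582 probes, called under 0.05), 23 probes were called, 0.131% of those tested. The slope is the log2 change per SD of the Adipoq level, so 1 SD is 1.25 log2 units of Adipoq. Cidec had a slope of 0.91 ± 0.08 (SE, adjusted p = 1.4e-09 by limma). Car3 had a slope of 1.35 ± 0.15 (adjusted p = 7.1e-08 by limma). With the pancreas score, defined below, in the same fit the slopes were 0.91 and 1.33 (adjusted p = 3.1e-09 and 1.2e-07 by limma). Both genes were called whichever 1 of the 38 arrays was left out, with slopes of 0.81 to 0.94 for Cidec and 1.25 to 1.39 for Car3. Slopes under other processing are per SD of Adipoq in that processing, so their sizes cannot be compared with those above. With the detection p-values as deposited the Cidec slope was 0.13 and that of Car3 0.75. The values deposited by the authors as processed gave 0.24 and 0.74, and every one of these slopes was still called.

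Several genes that rose with Adipoq are known from fat. Of the 23 probes called, 18 had a positive slope (0.102% of those tested), 15 of them with a gene name, and 5 a negative one (0.0284%). Plin4, a droplet coat protein of adipocytes, was 5.58 at the lowest, 6.87 at the median and 8.47 at the highest and had a slope of 0.62 ± 0.05 (adjusted p = 1.4e-11). Cyp2e1, a cytochrome P450 that oxidises ethanol and is made in liver and fat, ran from 4.71 over 7.46 to 10.32 and had a slope of 1.06 ± 0.10 (adjusted p = 1.4e-09). Its lowest array was BXD14 and its highest BXD96, the same arrays as for Adipoq. Ces1d, a carboxylesterase that hydrolyses triacylglycerol, ran from 6.08 over 8.53 to 10.67 and had a slope of 0.74 ± 0.11 (adjusted p = 1.5e-04). It was detected on all 38 arrays, with the same lowest and highest arrays again.

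Several of the called genes were dim. Adig (adipogenin), a small membrane protein of fat cells, had a slope of 0.57 ± 0.07 and was detected on 8 arrays. Thrsp, which promotes fatty acid synthesis, had a slope of 0.63 ± 0.08 and was detected on 12, and Cox8b, a cytochrome c oxidase subunit of brown fat and muscle, had a slope of 0.48 ± 0.07 and was detected on 11. Lep, the leptin gene whose upstream stretch is printed above, had a slope of 0.29 ± 0.06 (adjusted p = 0.0192) and was detected on only 3 arrays, with its highest level, 6.63, on BXD69. Lep was no longer called without BXD11 or without BXD48. Pon1, an esterase of lipoprotein particles, had a slope of 0.37 ± 0.07 on 8 arrays with detection, and Glb1l2, a beta-galactosidase-like protein, 0.35 ± 0.06 on 6, but Glb1l2 was not called among the male arrays alone. A level at the detection limit is only a bound, so these slopes rest on the few arrays with signal.

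The remaining called genes had weaker support. Retnla, a secreted relative of resistin, had a slope of 0.49 ± 0.11, and Inmt, an indolethylamine methyltransferase, 0.56 ± 0.12, with an adjusted p of 0.0389 for both. Each was called in 26 of the 38 fits that left out 1 array, and neither was called without BXD96, without BXD11, without BXD48 or with only male arrays. Inmt was not called without BXD14 either. Of the 15 named genes with a positive slope, 10 were called in all 38 of those fits, namely Cidec, Car3, Plin4, Cyp2e1, Adig, Thrsp, Cox8b, Ces1d, Pon1 and Glb1l2. Chpt1, a choline phosphotransferase, had a slope of 0.17 ± 0.04 and was called in 16 of them, and was picked for mention after its values were seen. So were Klhl20, an adaptor of a ubiquitin ligase, with a slope of -0.91 ± 0.19, and Dph5, a diphthamide synthesis enzyme, with -0.39 ± 0.08, the 2 named genes with a negative slope. Without BXD48 neither was called, and without BXD68 Dph5 was not. A second Dph5 probe had a slope of -0.08 (adjusted p = 0.591), so the probes of that gene disagreed. The probe most like the 3 genes, with an r of 0.942 with their mean over 38 arrays and a slope of 1.69 ± 0.09, has no gene name here.

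Ranked by Pearson r with the mean of Adipoq, Cidec and Car3 over the 38 arrays, the nearest named genes were Cyp2e1 (0.898) and Plin4 (0.897), then Adig (0.819), Thrsp (0.794), Cox8b (0.731), Pon1 (0.718), Glb1l2 (0.706) and Ces1d (0.690). After them came Adh1, a class I alcohol dehydrogenase (0.632), Upk3b, a uroplakin of mesothelium (0.630), Retnla (0.604), Inmt (0.593), the dipeptidase Dpep1 (0.587), Lep (0.582) and the syntenin gene Sdcbp (0.580). These are descriptions over arrays that share normalization, with no test. Taken gene by gene, the 3 nearest of Adipoq were Plin4 (0.904), Cidec (0.868) and Cyp2e1 (0.866), those of Cidec were Plin4 (0.871), Adipoq (0.868) and Cyp2e1 (0.861), and those of Car3 were Adipoq (0.831), Cyp2e1 (0.823) and Cidec (0.804). In the Adipoq fit, Adh1, Upk3b, Dpep1 and Sdcbp had slopes of 0.24, 0.30, 0.31 and 0.09 and missed the threshold, with adjusted p of 0.140, 0.0681, 0.0813 and 0.426. Upk3b passed it under 5 of 11 alternatives, among them the detection p-values as deposited, Dpep1 under 3 of 10 and Adh1 under 2 of 10.

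**Figure D3:**
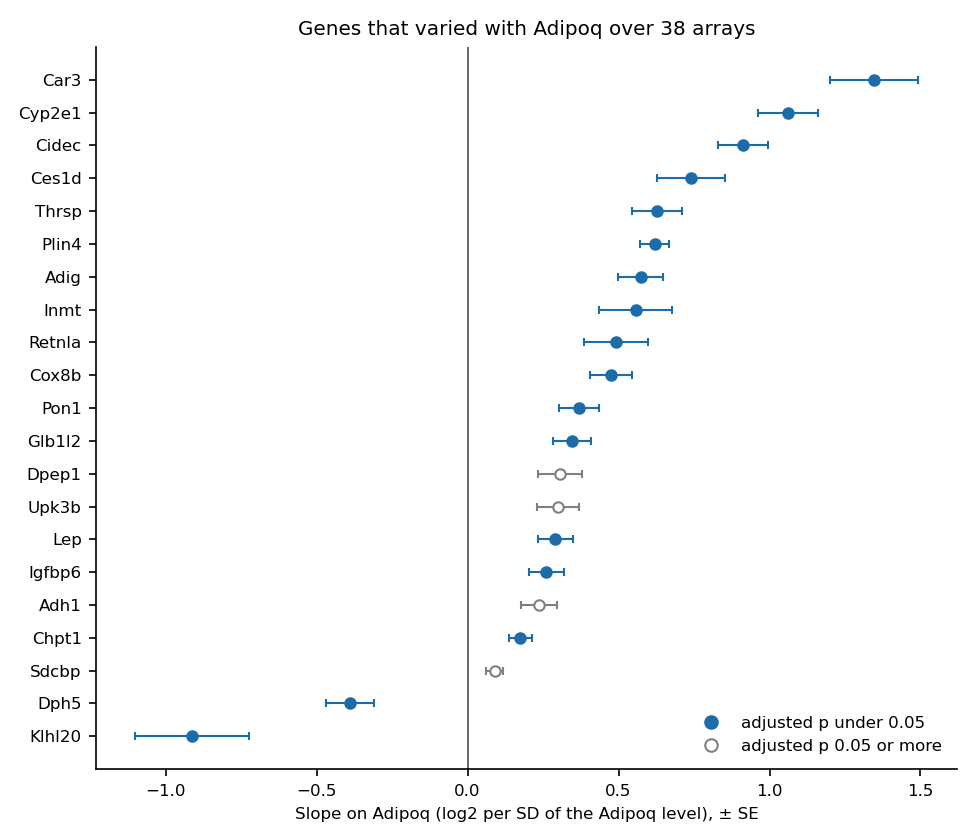
Slope on Adipoq with its SE for Cidec, Car3, the 15 nearest named genes and the other named genes called, over 38 arrays. Filled points have an adjusted p under 0.05; Car3, Cyp2e1 and Cidec have the steepest positive slopes, and Dph5 and Klhl20 lie below 0.

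Other genes of the adipocyte programme mostly did not pass the test. Among 12 lipid storage and lipolysis genes with a probe kept, 1 rose with Adipoq, Plin4, where 0.131% of all probes tested were called in either direction and 0.102% rose, and the median slope was 0.07, against 0.00 over all probes tested. Gpd1, which makes the glycerol backbone of triacylglycerol, had a slope of 0.24 ± 0.06 (adjusted p = 0.0612), and Dgat2, which completes its synthesis, 0.30 ± 0.11 (adjusted p = 0.479). The lipases Lpl and Lipe had slopes of 0.17 and -0.12 (adjusted p = 0.479 and 0.436). All of these were detected on 38 arrays. Among 12 fatty acid synthesis and glucose uptake genes, 1 was called, Thrsp, with a median slope of 0.01, and Fasn, the fatty acid synthase, had 0.09 (adjusted p = 0.518). Among 12 adipogenic regulators, 1 was called, Lep, with a median of 0.06; Pparg, the master regulator of fat cell formation, had a slope of 0.11 (adjusted p = 0.513) and Cebpa one of 0.00 (adjusted p = 0.989). The levels of Pparg ran from 6.72 to 8.25 and those of Lpl from 9.11 to 10.83 on all arrays, including those on which Adipoq was not detected.

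Of 5 genes on the brown fat list with a probe kept, 1 was called, Cox8b, against 0.131% of all probes tested. The median slope of the list was 0.06. The brown fat genes Ucp1, Cidea, Elovl3, Dio2 and Otop1 were detected on 0 arrays. Of 3 kept skeletal muscle genes none was called, with a median of -0.07, and Acta1, Myh1, Myh2, Myh4, Myl1, Mb and Actn3 were detected on 0 arrays and Ckm on 1. The kept muscle genes were Tnni2, detected on 38 arrays at levels of 8.02 to 10.05, Tnnt3, on 24 arrays, and Pvalb, on 4, with slopes of -0.07, -0.03 and -0.12. Of 5 kept liver genes none was called, with a median of -0.11, and Alb, Fgb and Tat were detected on 0 arrays and Cyp3a11 on 2, beside the liver-expressed Cyp2e1 and Pon1. The 5 kept liver genes were detected on 38 arrays for Apoa1, 23 for Serpina1a, 21 for Ttr, 13 for Apoa2 and 10 for Apob. Their slopes ran from -0.40 for Ttr to 0.22 for Serpina1a. Ttr was also on the islet list and rose with the pancreas score (slope 1.26, adjusted p = 3.2e-04 by limma). The part of liver-expressed transcripts in the result was not tested.

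Of the markers of other cells named next, 1 was called on Adipoq, where 0.131% of all probes tested were called and 0.102% rose. At so low a share, a list without a call does not show that its cells did not vary with Adipoq. Of 9 mesothelium genes, 1 rose, Igfbp6, with a slope of 0.26 ± 0.06 (adjusted p = 0.0490), and the median over the list was 0.14. Igfbp6 was called in 12 of the 38 fits that left out 1 array. The mean level of that list ran from 6.31 over 6.88 to 7.55. With this mean as a covariate Cidec and Car3 had slopes of 0.89 and 1.35 and stayed called. The mean includes Krt8 and Krt18, whose SDs of 1.53 and 0.99 were the widest on the list. Both rose with the pancreas score (slopes 1.15 and 0.72, adjusted p = 4.3e-06 and 3.0e-05 by limma). The mean is therefore no measure of mesothelium alone, so this fit does not adjust for mesothelium by itself. No gene was called among 12 of fibroblasts and capsule (median slope -0.02), 7 of smooth muscle (-0.05), 12 of endothelium (-0.01), 11 of macrophages (0.03), 11 of neutrophils (0.03), 4 of islets (-0.02) or 12 that check the spleen label (-0.03). The spleen label held: Cd79a of B cells ran from 12.23 to 13.79 and Cd3e of T cells from 11.53 to 13.27 over the 38 arrays.

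These counts depended on single arrays. Without BXD48 the probes called on Adipoq numbered 14, all with a positive slope, so the 5 negative calls were lost. Without BXD68 there were 16, 1 of them negative, and without BXD11 there were 17, 3 of them negative. Without BXD14, the array lowest in Adipoq, 321 probes were called, of which 69 rose and 252 fell with Adipoq, and 21 of the 23 were among them. The lists then gave Plin4 and Gpd1 (0.22 ± 0.06, adjusted p = 0.0420) up and Lipe (-0.15 ± 0.04, adjusted p = 0.0372) down among lipid storage genes. Among mesothelium genes Upk3b (0.28 ± 0.07, adjusted p = 0.0390) and Krt19 (0.25 ± 0.06, adjusted p = 0.0270) rose and Igfbp6 was not called. Krt19 was detected on only 3 arrays, the fewest the filter allows. Thrsp, Lep and Cox8b were still called, and no other list gave a call. Leaving out any other single array gave 14 to 27 calls. The mean correlation of BXD14 with the other arrays was 0.956, within the range of 0.943 to 0.967 over all arrays.

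**Figure D4:**
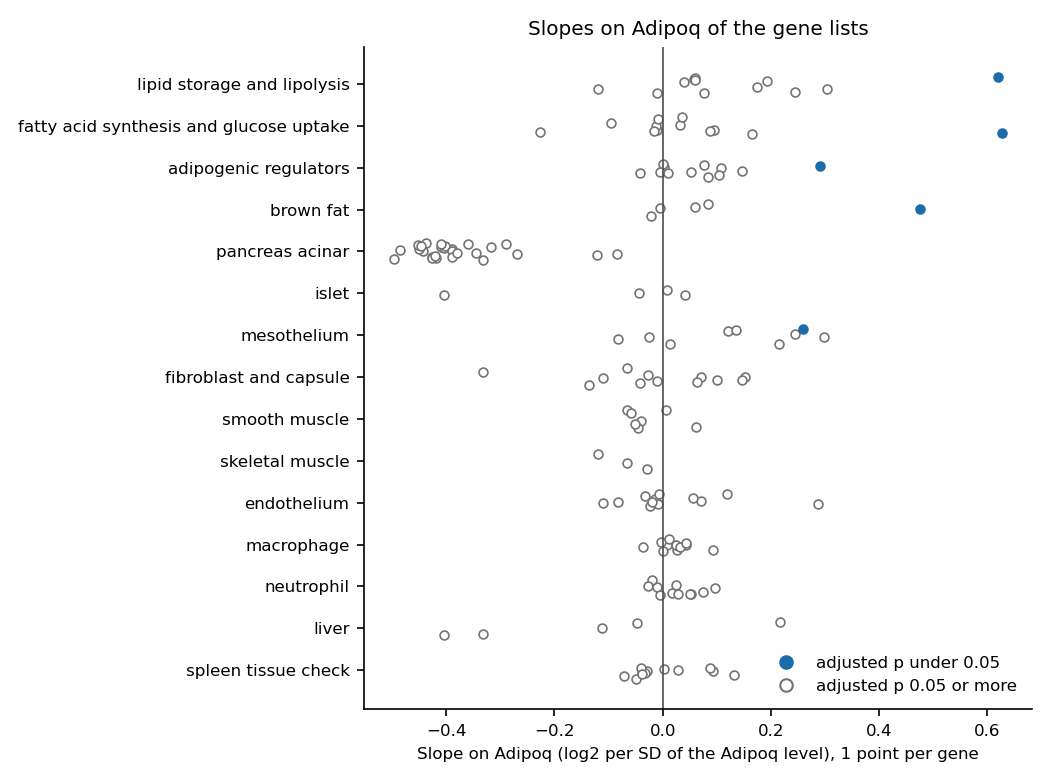
Slope on Adipoq of each gene kept on 15 lists, 1 point per gene, filled where the adjusted p was under 0.05. Single genes of the 4 fat lists and of the mesothelium list are called, the pancreas acinar genes and the 3 skeletal muscle genes all lie below 0 without passing the test, and no gene of the remaining lists is called.

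Pancreatic enzyme genes are made by acinar cells, which secrete digestive enzymes into the gut. No relation between them and the adipocyte genes passed the test. The pancreas score, the mean log2 intensity of 27 acinar genes such as the elastase gene Cela1, ran from 5.50 in BXD51 over a median of 8.94 to 15.20 in BXD28. Its r with Adipoq was -0.101, with Cidec -0.119 and with Car3 -0.189 over 38 arrays, with adjusted p of 0.794, 0.794 and 0.766 over the 12 relations (two-sided permutation test). Without BXD28 and BXD19, the arrays farthest from the median score, r was -0.164, -0.136 and -0.226. On the 19 arrays with the lower scores, up to 8.69, r was -0.203, -0.277 and -0.204, and on the 19 with the higher scores, from 9.19, it was -0.355, -0.450 and -0.407. Within both sets of arrays the adipocyte genes kept to each other: r of Adipoq with Cidec was 0.863 and 0.874, of Adipoq with Car3 0.872 and 0.792, and of Cidec with Car3 0.838 and 0.775.

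Arrays with high adipocyte genes had pancreas scores at both ends. BXD96 and BXD48 had scores of 5.51 each, among the lowest, whereas BXD69 had 10.34 and BXD11 13.92. At the low end of the adipocyte genes BXD68 had a score of 14.39, BXD36 of 14.90 and BXD75 of 13.63, while BXD14 had 7.54 and BXD73 6.04. The median of Adipoq was 7.89 on the 19 arrays with lower scores and 8.16 on the 19 with higher ones, that of Cidec 5.62 and 5.95, and that of Car3 8.61 and 8.66. In the fit of all other probes on the score, 512 of 17556 were called (2.92%) and no adipocyte gene was among them. Slopes per SD of the score were -0.13 for Adipoq (95% interval -0.53 to 0.28), -0.13 for Cidec (-0.46 to 0.21) and -0.31 for Car3 (-0.82 to 0.21), with adjusted p by limma of 0.824, 0.791 and 0.629. In turn, 0 of the 27 acinar genes were called on Adipoq, where 0.131% of all probes tested were. All 27 had negative slopes, with a median of -0.40. These genes were measured on the same arrays and are not independent, so their common sign does not count as separate results.

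**Figure D5:**
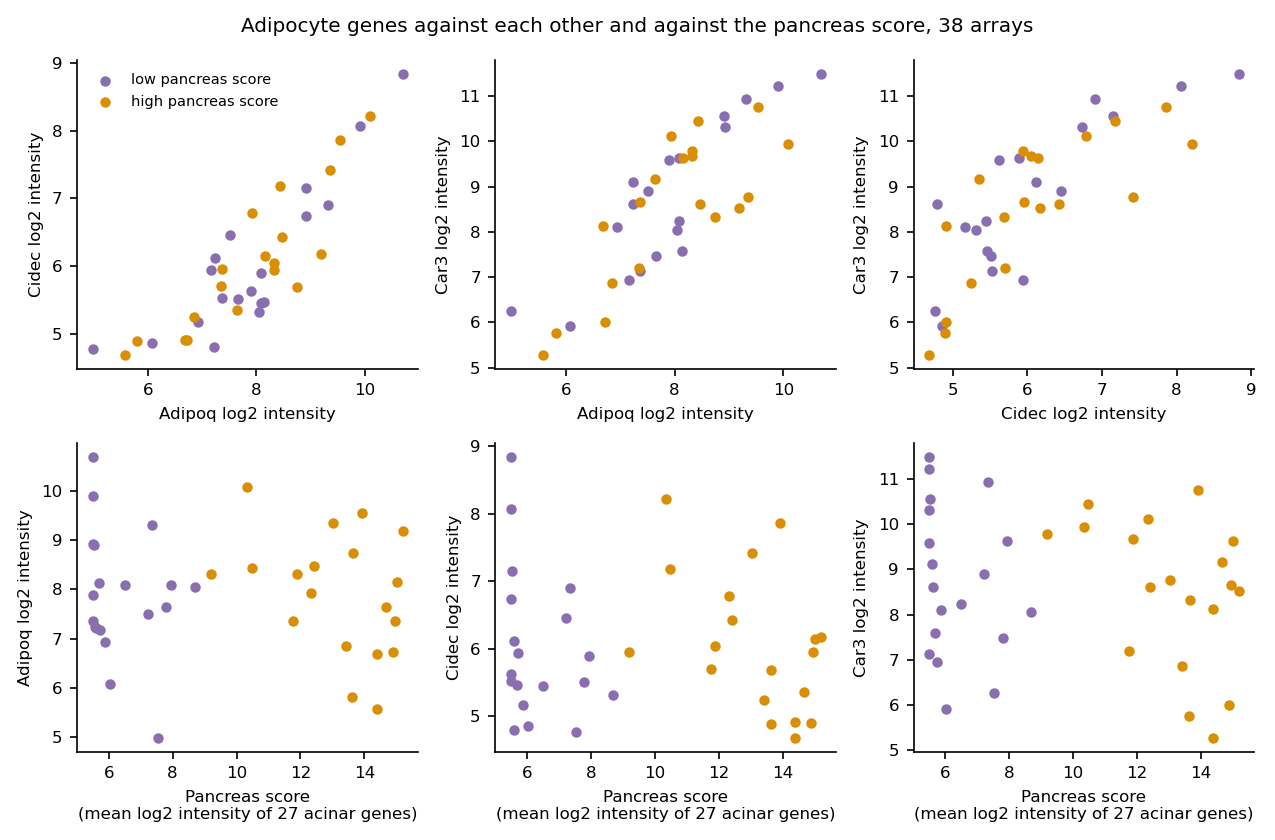
Upper row, log2 intensities of Adipoq, Cidec and Car3 against each other; lower row, each gene against the pancreas score, with 1 point per array and colour for the 19 arrays with lower and the 19 with higher scores. The upper panels rise in both colours, with r of 0.804 to 0.868 over 38 arrays, while in the lower panels r lies between -0.189 and -0.101.

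The series set spleen expression against 3 flow cytometry traits, available for 34 of the strains: LN T:B (natural log of T over B cells), LN CD4:CD8 (natural log of helper over cytotoxic T cells) and LN MHC Med (B-cell MHC class II staining, its median on a natural log scale). No adipocyte gene was called on any of them. On LN T:B, where 0.148% of 17583 probes were called, slopes per SD of the trait were 0.08 for Adipoq, -0.08 for Cidec and -0.27 for Car3 (95% interval -0.80 to 0.27). On LN CD4:CD8 they were 0.14, -0.07 and 0.18, and 0 of 17583 probes were called by limma, with 1832 at an unadjusted p under 0.05. On LN MHC Med, with 0.233% of probes called, they were 0.07, -0.05 and -0.27. Adjusted p by limma was 0.693 or more throughout.

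No difference in Adipoq, Cidec or Car3 between the arrays labelled female and male passed the test. Adipoq was 8.43 ± 1.96 (SD, n = 3) on the female arrays and 7.87 ± 1.21 (SD, n = 35) on the male arrays. Cidec was 6.97 ± 1.62 and 5.98 ± 0.98, and Car3 9.75 ± 1.51 and 8.53 ± 1.61. The female arrays overlapped the male ones in each gene except for BXD96, which was the highest of all. Female minus male was 0.56 for Adipoq, 0.99 for Cidec and 1.22 for Car3, with adjusted p by limma of 0.958, 0.834 and 0.891, where 54 probes were called (0.307%). Without BXD96 the differences were -0.57, 0.05 and 0.36. Each female array is also another strain, so sex and strain cannot be told apart.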

How the data were processed

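Spleen RNA of 38 strains was measured on single-colour arrays. The authors deposited a table of non-normalized probe intensity with a detection p-value per array, per the file headers, and a processed table whose values look like log2 values; the submitters' processing notes name lumi. The processed table's column medians ran from 7.83 to 7.86; its transformation is not stated, and its values were not centred. Per the labels, the 3 traits are natural log values. The array number limits precision. The deposited detection p-values are not a function of intensity (above 500, 18836 of 231278 values had one of 0.01 or more), so each was smoothed by a median taken over 201 probes of neighbouring intensity. Intensities were corrected and quantile-normalized with neqc (limma 3.58.1, offset 16, R 4.3.3; files read with data.table, version 1.17.8), and 17583 of 34492 probes detected on at least 3 arrays were kept, 12333 with 1 gene symbol. Genes took their probe of highest mean. Slopes were fitted with lmFit and eBayes, tested on simulated data, leaving the Adipoq or acinar probes out of their own fit. Named genes were every member, the 15 of highest r with the adipocyte mean, 3 neighbours per member and called genes of the lists; uncalled list genes, Chpt1, Dph5 and Klhl20 were named after their values were seen. Lists covered lipid storage, fatty acid synthesis, adipogenic regulators, brown fat, pancreas, islet, mesothelium, fibroblasts, smooth and skeletal muscle, endothelium, macrophages, neutrophils, liver and spleen. The members and lists were chosen with earlier results of these data known. Figures were drawn with matplotlib.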

Additional observations from a re-analysis of the deposited data

How the results depend on the processing

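Cidec and Car3 were called on Adipoq under each of 10 alternatives that tested them. Their slopes were 0.13 to 0.91 and 0.74 to 1.35, each per SD of Adipoq in its own setting, so not all comparable in size. With only probes detected on every array neither gene was tested. The count of probes called on Adipoq was 1 with that filter, both alone and given the pancreas score, against 23 and 25. It was 884 without BXD14 and BXD96, the arrays farthest from the median, and 804 given the score. Without BXD14 alone, chosen after seeing the data, it was 321, and 179 given the score. Given the score it was 15 with no filter on dim probes. The cause of these changes was not tested. Fewer probes enter the strict filter, but that is not all of the drop there. Retnla, Dph5, Chpt1 and Igfbp6 were still tested with the same slopes and lost their call (adjusted p of 0.063 to 0.0817 by limma). Leaving out each female array in turn gave female minus male differences for Adipoq of -0.57 (without BXD96) to 1.16. Uncalled slopes changed sign: Adipoq on LN T:B was -0.034 with detection p-values as deposited, -0.0089 on the authors' processed values and -0.14 without the 2 farthest arrays. Adipoq on LN MHC Med was -0.046, -0.013 and -0.14 under the same settings. With male arrays only, Cidec was 0.034 on LN T:B and 0.10 on LN MHC Med. The r of Adipoq with Cidec was 0.952 with detection p-values as deposited, and the r of Cidec with the pancreas score was -0.450 on the 19 arrays with higher scores. Among the other named genes no slope on Adipoq changed sign; the call was lost under 10 of 11 alternatives for Igfbp6, 6 of 10 for Inmt, 5 of 11 for Chpt1 and Retnla, 4 of 11 for Dph5, 2 of 10 for Klhl20 and 1 of 10 for Glb1l2, and was gained under 5 of 11 for Upk3b, 3 of 10 for Dpep1 and 2 of 10 for Adh1. No paired analysis was possible because each strain had a single array. A slide block was not run, since no slide is named in the files used. Depth is limited by signal over background: Cidec was detected on 21 arrays and Lep on 3.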
